A study of Mus musculus with 8 samples.

Results

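The 10 genes described here encode proteases that cut the extracellular matrix and inhibitors that hold them in check. They are the matrix metalloproteinases Mmp2, Mmp3, Mmp9, Mmp13 and Mmp14, the tissue inhibitors Timp1, Timp2 and Timp3, and the aggrecanases Adamts1 and Adamts4. They were chosen by name out of 31208 genes with at least 1 transcript count in the series, and all 10 were present in the tables. Their levels were read in each cell class of each library, with mural cells (pericytes and smooth muscle) and fibroblasts kept apart from endothelial cells.

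Matrix metalloproteinases are made as inactive precursors, mostly secreted, that need a cut in the pro-domain before they can act. The TIMP proteins bind the active site and so block it, while ADAMTS proteases carry extra domains that hold them to the matrix and cut proteoglycans such as aggrecan and versican. In the brain these enzymes act on the basement membrane around vessels and on the lectican-rich matrix between cells, and in gliomas they are studied for their part in invasion and in opening the vessel wall. These are statements of background, and only messenger RNA was measured here.

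The study profiled single cells by Drop-seq, which counts the 3′ ends of messenger RNA by unique molecular identifiers (UMIs), in 8 libraries with 1 library for each combination of genotype and condition. The genotypes were wild type (WT, Irg1/Acod1 +/+) and knock-out (KO, Irg1/Acod1 -/-) mice, C57BL/6 in the labels and C57BL/6N in the study's methods, the KO allele being an insertion cassette in Acod1, the gene of the itaconate-producing enzyme. The conditions were naïve brain, without implanted cells, and brain implanted with 500 GL261 cells, a mouse glioma line, taken when the tumour measured 5 to 10 mm3 (early), 20 to 25 mm3 (intermediate) or 30 to 35 mm3 (late). Each tumour-bearing library came from 1 mouse, 2 mice are named in the labels of each naïve library although the methods speak of a single biological replicate per condition, and the ages are not given in the labels. The implanted line was the same in both genotypes, so only the host differs in Acod1. GL261 is a cultured line placed in the brain by injection, so these tumours did not arise there. With 1 library per group, p-values measure the spread between libraries of different stages or genotypes, and no difference between 2 libraries was tested.

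Acod1 itself was read first, in the summed microglia and macrophages. There were 140 Acod1 UMIs (161 CPM, counts-per-million of all UMIs) in WT early, 5 (47.6 CPM) in WT intermediate and 4 (19.9 CPM) in WT late. The libraries labelled KO early, intermediate and late held 27, 6 and 33 UMIs, or 54.6, 11.3 and 59.7 CPM, and both naïve libraries held 0, which allows up to 14.8 (WT) and 10.3 (KO) CPM at a limit of 3 UMIs. The late pair thus stood in the opposite order to its labels. Whether the cassette still yields a counted 3′ end is not shown by the tables, and each library keeps the name its label gives.

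The deposited tables held between 2885345 (KO naïve) and 9950713 (WT intermediate) UMIs per library. After filtering, 5698 cells remained, from 454 in each naïve library to 1000 in WT intermediate, with median depths of 2607.5 (WT naïve) to 5642.5 (WT intermediate) UMIs per cell. Levels are given as CPM of the summed UMIs of a class in a library. Since Drop-seq counts 3′ ends, no correction for length applies, but capture can differ between transcripts, so levels are compared between cells and not between genes. Of the 24000 barcodes listed, 33 occurred in more than 1 library, and 2 did so among the kept cells.

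Cells were assigned to classes from marker genes after clustering from which 31 Mmp, Timp and Adamts genes had been left out, so the members did not shape the classes. The tumour-bearing libraries held 3398 tumour cells, 180 TAM I (tumour-associated microglia), 443 TAM II (infiltrating macrophages), 87 endothelial cells, 41 mural and fibroblast cells, 225 oligodendrocytes, 72 astrocytes, 60 oligodendrocyte precursors (OPCs), 187 lymphocytes and 26 dendritic cells. All 8 tumour markers were higher in the tumour cells than in other cells, with Col9a1 at 1610 against 45.7 and Col11a1 at 1196 against 61.2 CPM. A further 9 cells of the naïve libraries fell into the tumour cluster and were left out. In the endothelial cells, all 11 endothelial markers were detected, summing to 18789 CPM in tumour-bearing libraries, with Ly6c1 the most abundant. Mural markers summed to 2013 there, mostly Rgs5 (1214), and fibroblast markers to 254, mostly Mgp (195), with Lum, Dpt and Islr at 0. In the mural and fibroblast cells, 9 of 10 fibroblast markers summed to 22256 and all 11 mural markers to 7767 CPM, with Mgp and Rgs5 the most abundant, against 2889 for the endothelial list.

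The 41 mural and fibroblast cells were few and uneven in depth, and this bears on every result given for them. They numbered 9 in WT early, 4 in WT intermediate, 6 in WT late, 7 in KO early, 12 in KO intermediate and 3 in KO late, and the naïve libraries added 7 (WT) and 15 (KO). In 25 of the 41, fibroblast markers outnumbered mural markers. Of these, 14 came from a cluster led by fibroblast and mural markers, with a median of 3411.5 UMIs per cell, and 11 from the endothelial cluster, with a median of 10994 UMIs. The latter carried fibroblast markers at 30820 CPM, endothelial markers at 522 and tumour markers at 492.7, against 2204, 217 and 3242 in tumour cells. Their fibroblast genes included Dcn at 3080 and Col1a2 at 5801 CPM. When suspected doublets were removed before clustering, 10 of these 11 cells fell into the tumour cluster and 1 was removed, while of the 14 others 1 fell into the tumour cluster and 4 were removed. That setting removed 235 of 5698 cells and clustered the rest again, and calls of Mmp3, Mmp13, Mmp14, Timp1, Timp2 and Timp3 that changed or could not be tested under it are given beside the tests.

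The upstream sequences of Mmp3, Mmp13 and Timp1 are shown because transcripts of these genes were found together in the same small set of cells. Mmp3 lies on chromosome 9 of GRCm38 from 7445822 to 7455975 and Mmp13 from 7272514 to 7283331, both on the plus strand in the metalloproteinase cluster, whereas Timp1 lies on chromosome X from 20870166 to 20874735, plus strand (GENCODE M21). The 120 bases before each start site, from RefSeq on GRCm38.p6, read 5′ to 3′ on the plus strand with the letters TGANTCA in capitals. This is the core of the element bound by AP-1, the dimer of Fos and Jun proteins, searched on both strands, and its reverse complement has the same form.
Mmp3, chr9:7445702-7445821: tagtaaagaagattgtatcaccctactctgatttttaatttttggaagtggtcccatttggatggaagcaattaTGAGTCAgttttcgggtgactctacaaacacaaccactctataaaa
Mmp13, chr9:7272394-7272513: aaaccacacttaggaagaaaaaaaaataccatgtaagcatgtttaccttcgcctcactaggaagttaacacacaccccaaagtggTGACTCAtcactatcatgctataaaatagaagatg
Timp1, chrX:20870046-20870165: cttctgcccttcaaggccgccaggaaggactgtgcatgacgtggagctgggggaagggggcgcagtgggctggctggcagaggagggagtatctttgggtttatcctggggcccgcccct

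Mmp3 held 1 match, whose first base lies 46 bases before the start site, and Mmp13 held 1 at 35 bases. No match was found in the 250 bases before the start of Mmp14, Timp1, Timp2, Timp3 or Adamts1, so that 2 of the 7 members present in the promoter table held the letters, against 6.75% of 32851 promoters in 250 bases (3.41% in the 120 bases printed). Mmp2, Mmp9 and Adamts4 were not in that table. A match describes the letters only, and binding was not measured. The other members lie on chromosome 1 (Adamts4, 171250421 to 171260637), 2 (Mmp9, 164940780 to 164955850), 8 (Mmp2, 92827291 to 92853420), 10 (Timp3, 86300372 to 86349506), 11 (Timp2, 118301069 to 118355740), 14 (Mmp14, 54431612 to 54445364) and 16 (Adamts1, 85793827 to 85803113), with Timp2 and Adamts1 on the minus strand.

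Across the tumour-bearing libraries, each gene had a cell class in which it was highest. Mean levels over these libraries were highest in mural and fibroblast cells for Mmp2, Mmp3, Mmp13, Mmp14, Timp1 and Timp3, in TAM I for Timp2, in endothelial cells for Adamts1 and in oligodendrocytes for Adamts4. The class with the highest level was often not the one that held most of the transcripts, because tumour cells made up most of the cells. Tumour cells held 95.1% of the 3931 Mmp2 UMIs of all kept cells, 88.5% of 10463 Adamts1 UMIs, 86.6% of 5437 Timp1 UMIs and 76.3% of 3559 Timp3 UMIs. For Mmp3 the distribution was the reverse, since the 41 mural and fibroblast cells held 810 of 820 UMIs (98.8%), and for Mmp13 they held 355 of 499 (71.1%) with a further 107 (21.4%) in TAM II. These shares rest on the class given to the deep fibroblast-leading cells: with doublets removed, 89.6% of 805 Mmp3 UMIs lay in the tumour cluster and 10.1% in mural and fibroblast cells, and for Mmp13 28.1% and 48.8% of 473 did. Neighbours in these orders were not always apart. For Mmp2 the mean of mural and fibroblast cells (188 ± 199 CPM, SD, n = 6) exceeded that of tumour cells (124 ± 32.3) through WT intermediate, without which it was 114. Mural and fibroblast cells exceeded TAM II in Mmp14 in 5 of 6 libraries, endothelial cells exceeded mural and fibroblast cells in Adamts1 in 3 of 5, and TAM I exceeded mural and fibroblast cells in Timp2 in 6 of 6. The numbers of cells of each class reflect the dissected tissue and the dissociation as well as the brain itself.

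**Figure D1:**
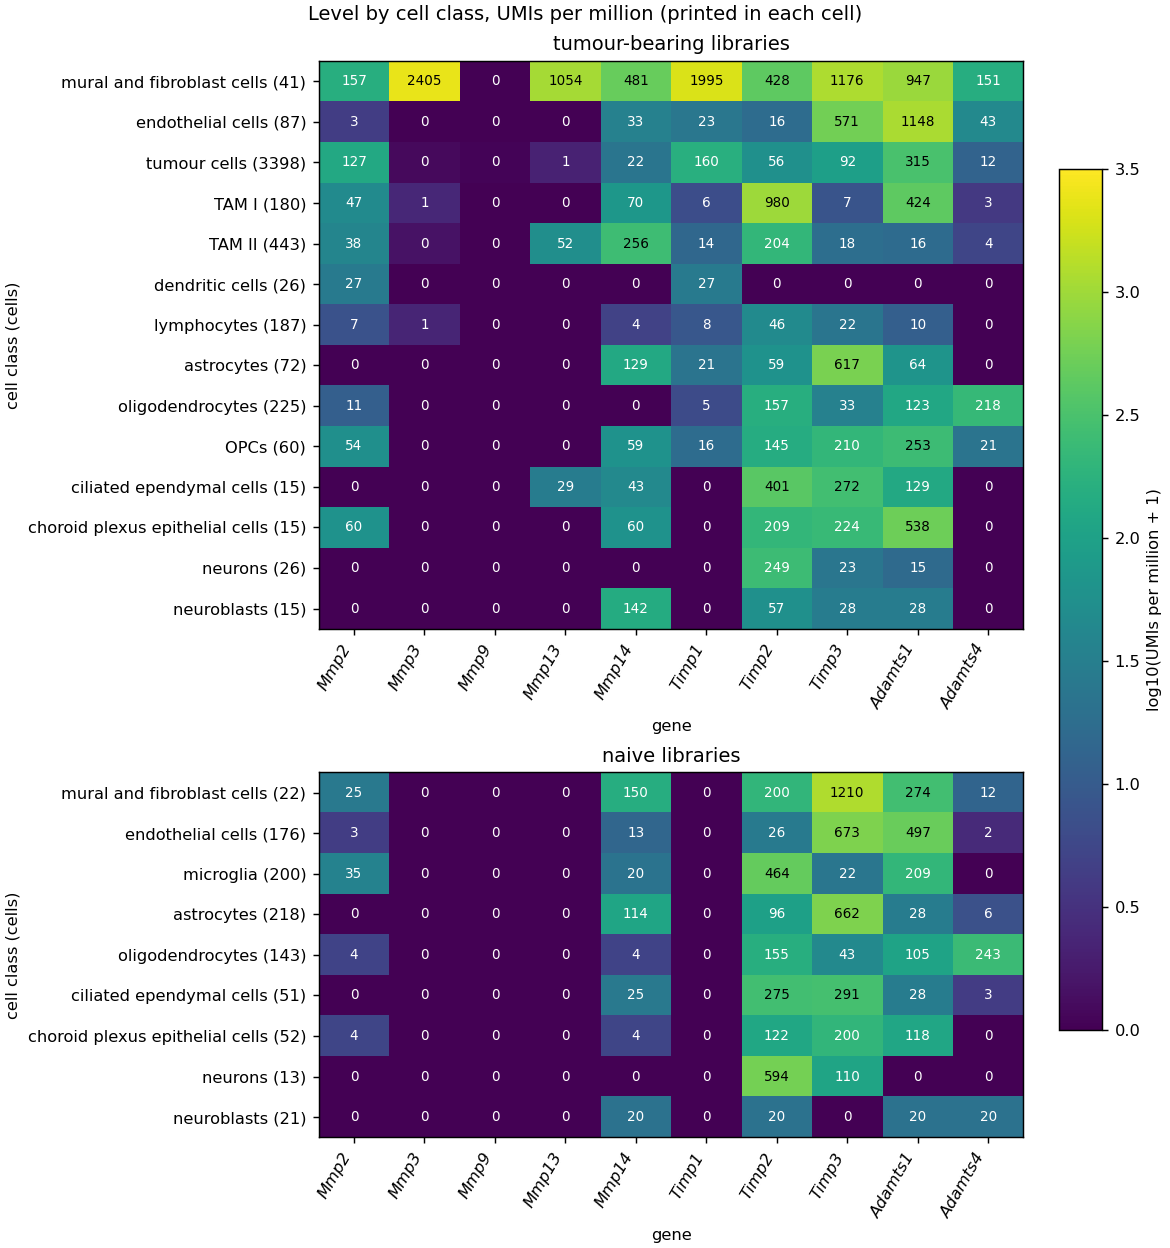
Level of each of the 10 genes (columns) in each cell class (rows, with the number of cells), summed over the tumour-bearing libraries (upper panel) and the naïve libraries (lower panel), in CPM printed in each field and coloured as log10(CPM + 1). Mmp3, Mmp13 and Timp1 stood at 2405, 1054 and 1995 in mural and fibroblast cells of tumour-bearing libraries and at 0 in the same class of naïve libraries.

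Mmp3 (stromelysin-1, which cuts many matrix proteins and activates other metalloproteinases) was found mostly in the mural and fibroblast cells of tumour-bearing libraries as classed here, with 709 of its 810 UMIs there in the 11 fibroblast-leading cells from the endothelial cluster. Its level there was 720 CPM in WT early, 1009 in WT intermediate, 6427 in WT late, 2547 in KO early, 1662 in KO intermediate and 744 in KO late. All 6 libraries were above 0, and WT late was the highest by far, because 1 cell of 29772 UMIs in that library held 460 of the 810 Mmp3 UMIs (56.8%). The WT early and KO early levels, too, came from 1 positive cell each. With doublets removed the mean over the 3 libraries left was 726 CPM, against 2185 over 6. In the naïve libraries the 22 cells of the class held 0 Mmp3 UMIs, so that the summed level of the tumour-bearing libraries was at least 64.3-fold higher than 3 UMIs over the naïve group, and at least 33.2-fold without WT late. An exact permutation test of 6 against 2 libraries cannot give a two-sided p below 0.0714, and none was made. Shares of cells with a Mmp3 UMI were 48.8% (95% exact binomial interval 32.9 to 64.9) in this class at a median depth of 4722 UMIs, 0.206% in tumour cells at 4905 UMIs and 0.535% in lymphocytes at 3029 UMIs. Intervals cover counting error only.

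Mmp13 (collagenase-3, which cuts fibrillar collagen) was found in the same class with another order of libraries. The level was 70.3 CPM in WT early, 1457 in WT intermediate, 1100 in WT late, 596 in KO early, 3092 in KO intermediate and 106 in KO late, and 0 in both naïve libraries, so the summed level was at least 28.2-fold higher in the tumour-bearing libraries, against 3 UMIs over the naïve group, and at least 15.1-fold without KO intermediate. KO intermediate was highest for Mmp13, whereas WT late was highest for Mmp3. The levels of WT early, WT intermediate, KO early and KO late came from 1 positive cell each, and those of WT late and KO intermediate from 2 and 6. With doublets removed the mean over the 3 libraries left was 2322 CPM, against 1070 over 6.

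Timp1, the secreted inhibitor that binds most metalloproteinases, was found in the same mural and fibroblast cells as Mmp3 and Mmp13. Of the 41 cells, 21 held a UMI of Mmp3 or Mmp13, and all 21 also held a Timp1 UMI, while 3 of the other 20 did. Of the 21 cells, 20 had more fibroblast than mural marker UMIs. The Timp1 level of the class was 624 (WT early), 1681 (WT intermediate), 4532 (WT late), 542 (KO early), 2800 (KO intermediate) and 638 (KO late) CPM, and 0 in both naïve libraries. Its level was therefore at least 53.3-fold higher in the tumour-bearing libraries, against 3 UMIs over the naïve group, and at least 33.8-fold without WT late. With doublets removed the mean over the 3 libraries left was 835 CPM, against 1803 over 6. Cells with many UMIs are more likely to hold a UMI of any gene, so the overlap is a description.

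Within the class, levels were set side by side for cells led by fibroblast and by mural markers, without a test. In the 25 cells with more fibroblast marker UMIs, Mmp3 stood at 3608, Mmp13 at 1624, Timp1 at 3037, Mmp2 at 242, Mmp14 at 681 and Timp2 at 622 CPM. In the 16 cells with more mural marker UMIs the same genes stood at 178, 0, 67.7, 0, 110 and 67.7. Adamts1 had the opposite order, with 325 in the fibroblast-leading and 2099 in the mural-leading cells. Timp3 stood at 1262 and 1016 and Adamts4 at 169 and 118, with overlapping intervals for both genes. The 21 Mmp3 UMIs of the mural-leading cells came from 1 cell of WT intermediate. In the naïve libraries 9 cells were fibroblast-leading, and they held Mmp14 at 307 and Timp3 at 1303 CPM but 0 UMIs of Mmp3, Mmp13 or Timp1. The 9 naïve cells held 39136 UMIs in all (median 4189 per cell) and the 25 cells of tumour-bearing libraries 218660 (median 4191), so the latter included far deeper cells.

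The 2 sources of fibroblast-leading cells differed in level but both carried the genes. Those from the endothelial cluster held Mmp3 at 4159, Mmp13 at 722 and Timp1 at 3420 CPM, and those from the fibroblast and mural cluster held 1660, 4815 and 1681. In the whole class, the 11 cells above 10000 UMIs held 700 of the 810 Mmp3 UMIs. The other 30 cells still held Mmp3 at 871, Mmp13 at 1853, Timp1 at 736, Mmp14 at 380 and Timp2 at 467 CPM.

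**Figure D2:**
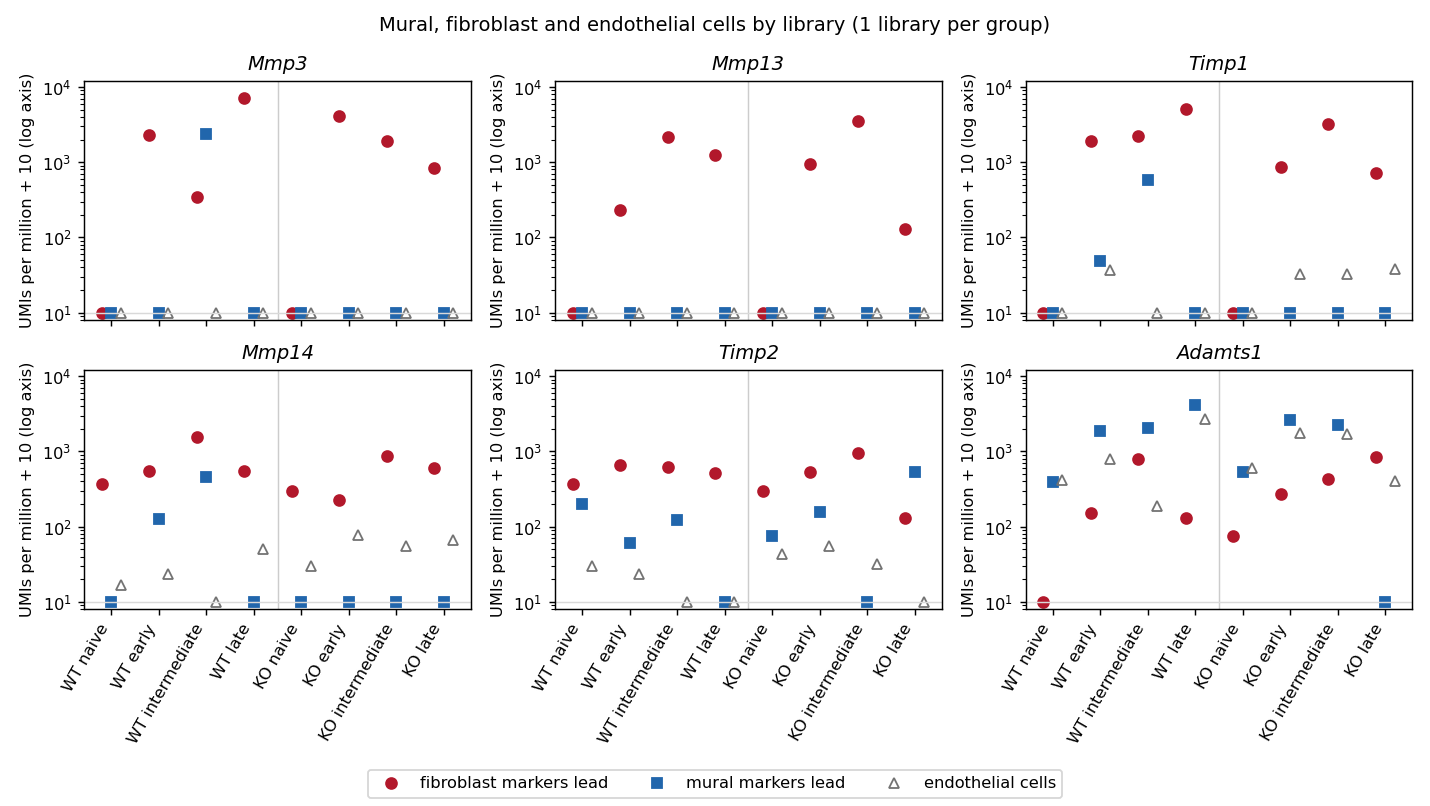
Levels of 6 genes per library in cells led by fibroblast markers (circles), cells led by mural markers (squares) and endothelial cells (triangles), as CPM + 10 on a log axis, so that 10 stands for 0. The circles lie highest for Mmp13 and Timp1 in all 6 tumour-bearing libraries, and for Mmp3 in all but WT intermediate, and at the floor in both naïve libraries, while for Adamts1 the squares lie above the circles except in KO late.

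Against endothelial cells of the same libraries, Timp1, Timp2 and Mmp14 were higher in mural and fibroblast cells. Mmp3 and Mmp13 had UMIs only in the latter. The comparison used the 5 tumour-bearing libraries with at least 3 cells of each class, and 8 members passed the low count filter. Timp1 was higher by 5.70 on the log2 scale (SE 0.62), Timp2 by 4.38 (SE 0.50) and Mmp14 by 3.33 (SE 0.48). Endothelial cells of the tumour-bearing libraries held only 7, 5 and 10 UMIs of these genes, so the sizes rest on few counts there. The genes passed the filter only through the mural and fibroblast cells, so no p-value is given for these calls. Mmp3 and Mmp13 had 0 UMIs in the endothelial cells and passed the filter only through the mural and fibroblast cells, so no p-value is given. They were at least 250-fold and 101-fold higher against 3 UMIs over the endothelial cells. Without WT late the bound of Mmp3 was 116-fold, and without KO intermediate that of Mmp13 was 39.5-fold. In the same fit 23.7% of 1449 genes were called, in either direction. Adamts4 (1.70, SE 0.67, adjusted p = 0.0932), Timp3 (0.46, SE 0.45) and Adamts1 (-0.48, SE 0.48) did not pass. With doublets removed, and with cells above 10000 UMIs left out, Mmp3, Mmp13, Mmp14 and Timp1 did not pass the low count filter. Timp2 was higher by 3.598 with the deep cells left out, and was not called with doublets removed (adjusted p = 0.0738).

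Mmp14, the membrane-anchored protease that activates the Mmp2 precursor with the help of Timp2, was at 246, 1196 and 490 CPM in mural and fibroblast cells of WT early, intermediate and late and at 135, 769 and 531 in the KO libraries. The naïve libraries stood at 159 (WT) and 147 (KO), within this range. Mmp2 (gelatinase A) reached 560 in WT intermediate but was 0 in KO early, and this class exceeded tumour cells of its own library in 2 of 6 libraries. Timp2 ranged from 159 (KO late) to 831 (KO intermediate) against 265 and 179 in the naïve libraries. For Mmp14, Mmp2 and Timp2, therefore, the tumour-bearing and naïve libraries overlapped.

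Among 8 other inhibitors and clearance genes, 4 could be tested between mural and fibroblast and endothelial cells, where 3 were higher and 1 lower (median log2 difference 4.07, against 0.11 over all genes tested, of which 23.7% were called). Lrp1, the receptor that clears proteases, was among those higher, by 4.43, as was Serpine2, by 3.87, while Spock2 was lower (-4.60, all with edgeR adjusted p at or below 0.00405). Of 7 genes of plasminogen activation and metalloproteinase induction, 2 were tested and Bsg (basigin), an inducer, was lower (-2.87). Of 11 basement membrane genes, 6 were tested and Lamb1 (2.65) and Nid1 (1.15) were higher, a share near that of all genes. None of the 5 AP-1 subunits tested was called, although their summed level in the mural and fibroblast cells ranged from 3932 (KO late) to 15282 (WT early) CPM, against 5357 (WT) and 2087 (KO) in the naïve libraries. The part of this in the Mmp3 and Mmp13 levels was not tested.

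Tumour cells were the main holders of Mmp2, Timp1 and Adamts1 transcripts. Mmp2 stood at 95.8, 151 and 82.9 CPM in WT early, intermediate and late and at 123, 169 and 122 in the KO libraries (mean 124 ± 32.3 SD, n = 6). Shares of tumour cells with a UMI were 46.6% for Mmp2, 47.4% for Timp1 and 59.4% for Adamts1 at a median depth of 4905 UMIs, against 2.67%, 1.60% and 3.21% of lymphocytes at 3029 UMIs, which serve here as the level of free RNA. Thinned to 1000 UMIs per cell the shares in tumour cells were 12.4%, 12.3% and 22.0%. Timp1 ranged from 130 (WT intermediate) to 232 (KO early) CPM and Adamts1 from 230 (KO early) to 430 (WT late).

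Compared with all other cells of the same libraries, tumour cells were higher in Mmp2 and lower in 6 members. Of the 10 members, 9 passed the filter, and in this fit 64.1% of 15615 genes were called, so calls were common. Mmp2 was higher by 1.75 (SE 0.29, edgeR adjusted p = 0.00026). Lower in tumour cells were Mmp14 (-3.06, SE 0.15), Timp2 (-2.47, SE 0.28), Adamts4 (-2.11, SE 0.19) and Timp3 (-0.83, SE 0.24, edgeR adjusted p = 0.0106). Mmp3 and Mmp13 were also lower, with 7 and 35 UMIs (0.238 and 1.19 CPM) in all tumour cells. Both passed the filter mainly through the other cells, so no size is given. The other cells' UMIs of these genes lay mostly in the mural and fibroblast cells. With doublets removed, and so with 10 of the deep fibroblast-leading cells placed among tumour cells, Mmp3 was not called (0.27, adjusted p = 0.87) and neither was Timp3 (adjusted p = 0.196). Timp1 (0.55, SE 0.51, adjusted p = 0.357) and Adamts1 (0.37, SE 0.16, adjusted p = 0.0543) did not pass. Timp1 passed in 3 of the alternatives, among them without WT late (1.08) and with doublets removed (2.59). The latter setting moved the same 10 cells. The 11 fibroblast-leading cells from the endothelial cluster, to which they belong, held 583 of the 672 Timp1 UMIs of the mural and fibroblast class.

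Genes of the wider system were called in both directions between tumour cells and other cells, in the fit that called 64.1% of all genes, so the counts of the lists stand beside that share, and those of the other ADAMTS, plasminogen activation, lectican and basement membrane lists lie near it. Among 18 other matrix metalloproteinases, 8 were tested, with Mmp17 (3.11), Mmp16 (2.20) and Mmp15 (1.99), 3 membrane-anchored proteases, higher and 4 lower, Mmp12 (macrophage elastase, -5.57) the most. Of 17 other ADAMTS genes, 8 were tested, and Adamts14 (1.93) and Adamts20 (1.75) were higher whereas Adamts2 (-5.11) and Adamts10 (-1.33) were lower. Adamts17 was also higher, but all of its 118 UMIs lay in tumour cells, through which alone it passed the filter, so no size is given. All 6 membrane sheddases tested were lower, from Adam8 (-5.50) to Adam9 (-0.29), as were 7 of 8 other inhibitors and clearance genes, among them Lrp1 (-3.70) and Serpine2 (-3.93), and 4 of 6 plasminogen activation genes tested, among them Plau (urokinase, -4.50). Among the lecticans, substrates of the aggrecanases, Vcan was higher (1.81) and Ncan lower (-3.25). Of 11 basement membrane genes, Hspg2 (1.87) and Lama4 (1.00) were higher and 6 were lower, among them Col4a1 (-3.86). The AP-1 subunits were higher for Fosl1 (1.53) and lower for the other 6. Medians of these lists ranged from -2.94 (other inhibitors) to 0.28 (lecticans), beside 0.013 over all genes tested, and all calls given with a size had an edgeR adjusted p under the threshold of 0.05.

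Host genotype and tumour stage were then compared in tumour cells. None of the 7 members that passed the filter was called for KO against WT, in a fit that called 0% of 14419 genes with edgeR. At an unadjusted p under 0.05 there were 933 genes, and DESeq2 called 71 genes. Mmp2 was the member with the smallest p, higher in KO by 0.40 (SE 0.16, unadjusted p = 0.0384, edgeR adjusted p = 0.729), and the KO library was the higher at each of the 3 stages. Timp2 was 0.76 higher in KO (SE 0.38, edgeR adjusted p = 0.857), with an adjusted p of 0.0182 without WT intermediate and 0.0215 without KO intermediate. With stage as the block, both of these fits rest on the same contrast of the early and late stages. The other members differed by -0.34 (Adamts1, SE 0.20), -0.19 (Adamts4, SE 0.25), -0.13 (Mmp14, SE 0.37), 0.41 (Timp1, SE 0.19) and 0.22 (Timp3, SE 0.16), with edgeR adjusted p from 0.836 to 0.989. For late against early, the share called was also 0% of 14419 genes with edgeR, with 1053 genes at an unadjusted p under 0.05 and 23 with DESeq2. Timp3 had the smallest p, lower at the late stage (-0.60, SE 0.20, edgeR adjusted p = 0.603), with 90.5 and 95.6 CPM at the early and 61.9 and 64.6 at the late stage in WT and KO. The other members differed by 0.29 (Adamts1), 0.62 (Adamts4), 0.59 (Mmp14), -0.16 (Mmp2), -0.10 (Timp1) and -0.04 (Timp2), with SE from 0.20 to 0.45 and edgeR adjusted p from 0.708 to 0.991. At the early and intermediate stages the WT and KO mouse were of opposite sex, so genotype and sex cannot be told apart there.

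**Figure D3:**
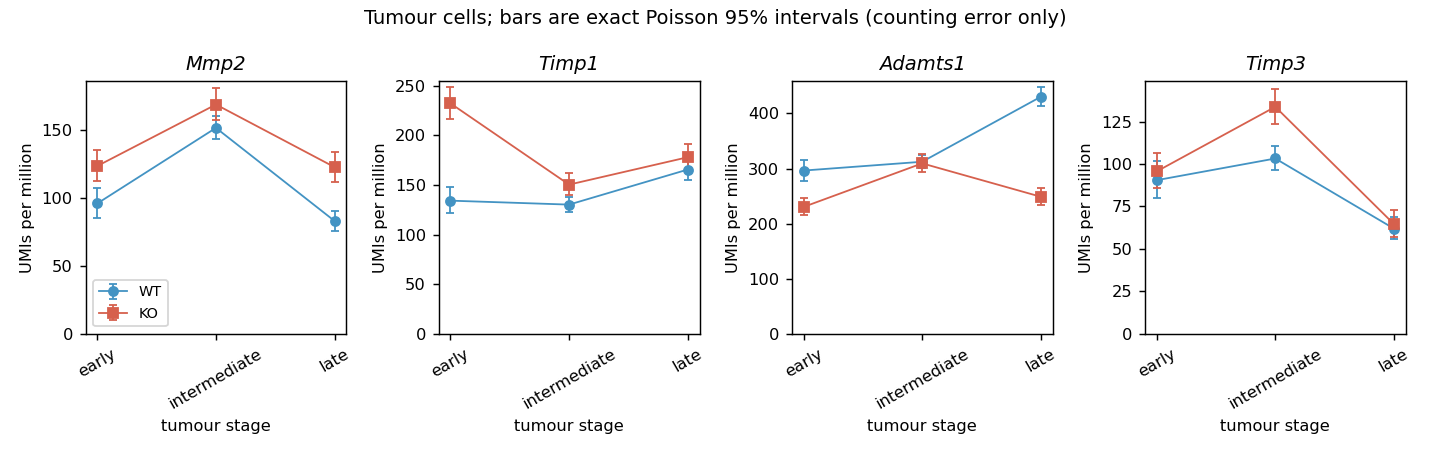
Mmp2, Timp1, Adamts1 and Timp3 in tumour cells by stage, in CPM, for WT (circles) and KO (squares) libraries, with exact Poisson 95% intervals that cover counting error only and 1 library per point. The intervals separate several libraries of 1 gene, for example Adamts1 in WT late (430) and KO late (249), while no member was called between genotypes over the 3 stages.

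The myeloid classes divided the genes between resident and infiltrating cells. Mmp14 was higher in TAM II, at 226, 365 and 304 CPM in WT early, intermediate and late and 191, 266 and 311 in the KO libraries. In TAM I it stood at 78.2, 0 and 33.7 (WT) and 84.6, 74.0 and 72.7 (KO), so the classes did not overlap in any library. The difference was 1.91 on the log2 scale (SE 0.28, edgeR adjusted p = 3.0e-05). Shares of cells with a Mmp14 UMI were 54.4% of TAM II at a median depth of 3232 UMIs, 18.9% of TAM I at 3062 and 1.07% of lymphocytes at 3029. Naïve microglia held 20.4 CPM.

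Timp2 and Adamts1 had the opposite order. Timp2 stood at 1227, 1094 and 877 CPM in TAM I of the WT libraries (early, intermediate, late) and at 846, 1023 and 364 in the KO libraries, against 121, 719 and 411 and 130, 198 and 237 in TAM II. It was higher in TAM I in each of the 6 libraries although the ranges overlapped (TAM II minus TAM I -1.85, SE 0.33, edgeR adjusted p = 0.000247). Adamts1 in TAM I varied from 67.3 (KO intermediate) to 2245 (WT intermediate, from 5 cells), and in TAM II from 0 (WT late) to 46.0 (KO late), with no overlap (-4.87, SE 0.38). TAM II held only 32 Adamts1 UMIs and the gene passed the filter only through TAM I, so no p-value is given. A Timp2 UMI was seen in 76.1% of TAM I (44.4% at 1000 UMIs per cell), 62.5% of naïve microglia and 13.9% of lymphocytes. Mmp14, Timp2 and Adamts1 were the members that passed the filter, and 26.1% of 3680 genes were called in this fit. All 13 alternatives kept the calls of Mmp14 and Timp2.

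An Adamts1 UMI was seen in 23.3% of TAM I (12.2% at 1000 UMIs) and in 10.5% of naïve microglia, at median depths of 3062 and 2305.5 UMIs. Of the TAM I sub-clusters, that of 97 cells held it at 483 CPM and that of 73 cells at 408, while the other 10 TAM I cells, which clustered with naïve microglia, held 1 UMI (44.8 CPM). In the first pair the AP-1 list summed to 9738 and 3624, against 11289 in the main naïve microglia sub-cluster, where Adamts1 stood at 210. Timp2 differed more between the same pair, with 609 and 1224 CPM. Among the 4 TAM II sub-clusters Mmp14 lay between 235 and 277, while Timp2 ranged from 54.4 to 310. In the TAM II minus TAM I fit, the AP-1 genes Fosl2 (1.97) and Fosb (0.72) were higher and Jun (-2.37) and Jund (-1.04) lower, and their part in the Adamts1 difference was not tested.

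Mmp13 was detected in TAM II and not in TAM I. TAM II held 34.0 CPM in WT early, 377 in WT intermediate, 0 in WT late, 37.7 in KO early, 54.8 in KO intermediate and 37.3 in KO late. The 107 UMIs were at least 12.2-fold above 3 UMIs over TAM I, but 33 of them came from 2 of the 17 cells of WT intermediate, and the gene did not pass the filter for the test. A Mmp13 UMI was seen in 6.998% of TAM II (3.39% at 1000 UMIs per cell) and in 0 of 187 lymphocytes. All 4 TAM II sub-clusters held the transcript, from 25.0 to 71.7 CPM.

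Other genes of the system were called between the myeloid classes as well, in the fit that called 26.1% of all genes. The only other metalloproteinase tested, Mmp12, was higher in TAM II by 3.25, as were the sheddase Adam8 (2.08), the urokinase receptor Plaur (1.86) and the pro-protein convertase Furin (1.65), which activates Mmp14. Among those lower in TAM II were Serpine2 (-4.29), Plau (-1.26) and Adam15 (-1.11). By list, 1 of 5 sheddases tested was higher and 1 lower, 2 of 3 inhibitors and clearance genes were lower, and 2 of 4 plasminogen activation genes were higher and 1 lower, each with an edgeR adjusted p at or below 0.0257.

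**Figure D4:**
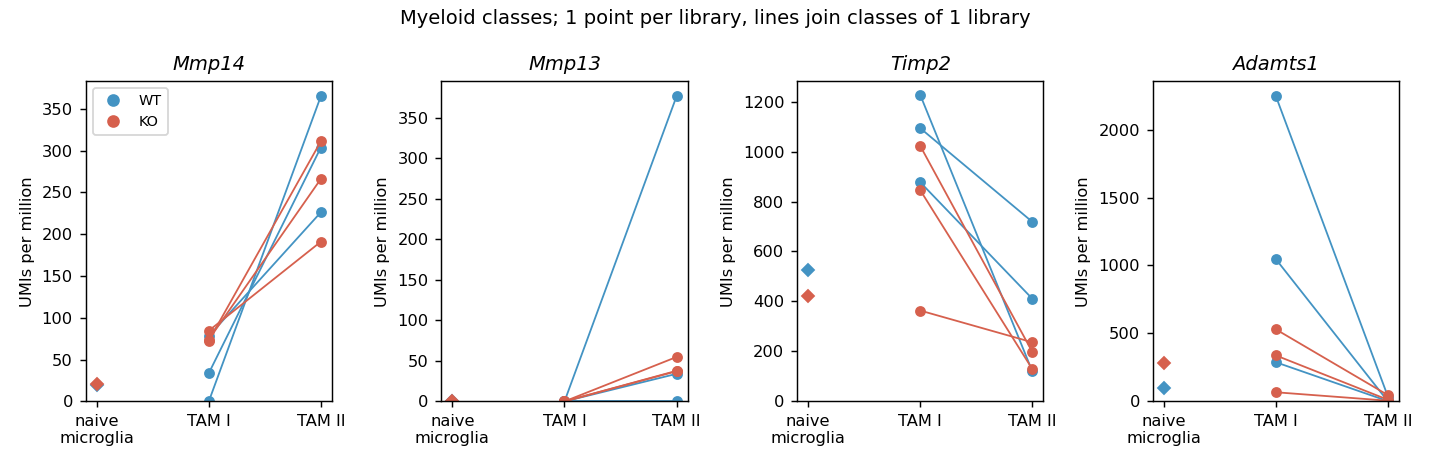
Mmp14, Mmp13, Timp2 and Adamts1 in naïve microglia (diamonds) and in TAM I and TAM II (circles), in CPM, with lines joining the classes of 1 library. Mmp14 is higher in TAM II than in TAM I in all 6 libraries, Timp2 and Adamts1 are lower, and the Mmp13 panel shows WT intermediate far above the others.

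Against naïve microglia, neither member that passed the filter was called in TAM I. Timp2 was 0.97 higher on the log2 scale (SE 0.40, edgeR adjusted p = 0.103), with naïve values of 525 (WT) and 422 (KO) below 5 of the 6 tumour-bearing libraries but above KO late (364), and an adjusted p of 0.0266 without KO late. Adamts1 differed by 1.30 (SE 0.74, adjusted p = 0.241), with naïve values of 100 (WT) and 284 (KO). In this fit 16.4% of 3314 genes were called, among them Fosl2 (3.38) and Jun (-1.62) of the 6 AP-1 genes tested. Between genotypes, Adamts1 in TAM I was lower in KO by 1.66 (SE 0.65, edgeR adjusted p = 0.853) in a fit that called 0% of 2214 genes with edgeR, 92 of them at an unadjusted p under 0.05. Its adjusted p was 0.00291 without WT early and 0.0069 without KO early. With stage as the block, both fits rest on the same contrast of the intermediate and late stages. There WT intermediate held Adamts1 at 2245 CPM from 5 cells, against 67.3 in KO intermediate. Timp2 differed by -0.63 (SE 0.41, edgeR adjusted p = 0.997). In TAM II, 0.0935% of 6417 genes were called for genotype and none of 5 members, where Mmp2 (-1.64, SE 0.63, unadjusted p = 0.0188) and Timp2 (-0.82, SE 0.35, unadjusted p = 0.0302) had the smallest p. Adamts1 differed by 1.23 (SE 1.16), Mmp13 by -0.75 (SE 0.66) and Mmp14 by -0.19 (SE 0.29). For late against early in TAM II, 0.0156% of 6417 genes were called and none of 5 members. Timp2 was higher at the late stage by 1.19 (SE 0.42, edgeR adjusted p = 0.891, and 0.0345 without KO early), and Adamts1 differed by 1.92 (SE 1.18), Mmp13 by -0.29 (SE 0.83), Mmp14 by 0.48 (SE 0.35) and Mmp2 by -0.80 (SE 0.76).

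Endothelial cells carried Adamts1 and Timp3 and little else of the list. Adamts1, which also restrains angiogenesis, stood at 776 in WT early, 2649 in WT late, 1730 in KO early, 1717 in KO intermediate and 390 in KO late, and at 404 (WT) and 591 (KO) in the naïve libraries, in CPM, with WT intermediate left out for having 2 cells. KO late lay below both naïve libraries and the other 4 lay above them. The difference from naïve cells was 1.44 (SE 0.46, edgeR adjusted p = 0.078), in a fit that called 4.82% of 1100 genes. It passed in 6 alternatives, among them a minimum of 500 genes per cell (1.56, adjusted p = 0.0131) and without KO late (1.70, adjusted p = 0.00721). Adamts1 UMIs were seen in 65.5% of the endothelial cells of tumour-bearing libraries and in 46.0% of those of naïve libraries, or 51.7% and 26.7% at 1000 UMIs per cell.

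The AP-1 genes moved in the same cells. Of 7 listed, 5 were tested and all 5 were higher in tumour-bearing libraries, Fosb by 5.38 (SE 0.43), Fos by 4.63 (SE 0.39), Junb by 3.21 (SE 0.43), Jun by 1.87 (SE 0.31) and Jund by 1.45 (SE 0.33), each with an edgeR adjusted p at or below 0.00791. Fos stood at 2654 to 5100 CPM in the tumour-bearing libraries and at 105 (WT) and 171 (KO) in the naïve ones. In KO late, Fos was at 4288 and Adamts1 at 390, so these 2 genes did not order the libraries alike. The brains were dissociated enzymatically while the cells were alive, and the part of the AP-1 change in the Adamts1 value was not tested. Of the 3 basement membrane genes tested, Col4a1 was higher (1.37, SE 0.31, edgeR adjusted p = 0.00785).

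**Figure D5:**
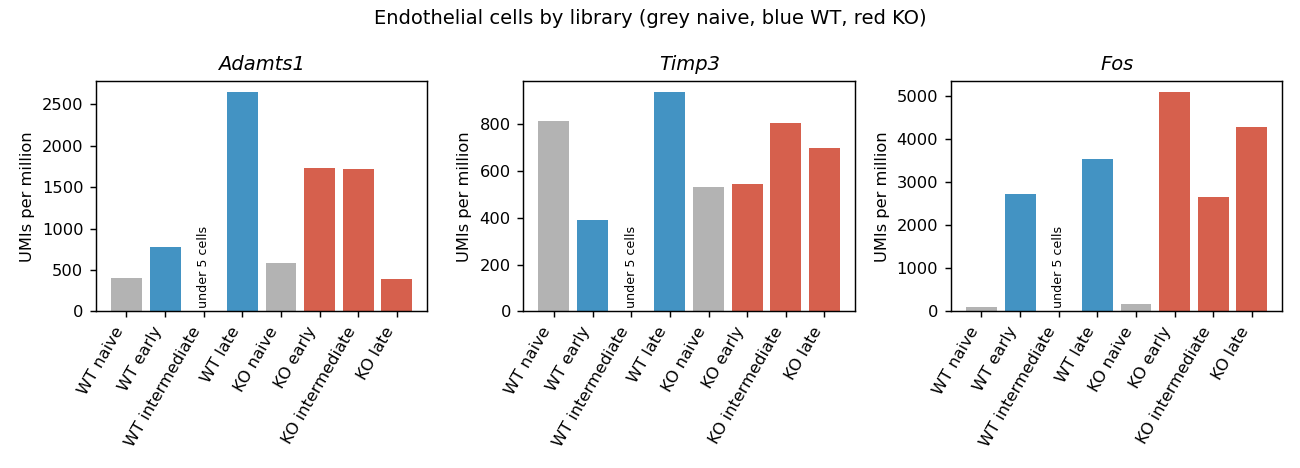
Adamts1, Timp3 and Fos in endothelial cells of each library in CPM (grey bars naïve, blue WT and red KO tumour-bearing), with WT intermediate left out for having under 5 cells and no error bar because each bar is 1 library. Fos is above both naïve libraries in all 5 tumour-bearing libraries shown, Adamts1 in 4 of 5, and Timp3 overlaps between the conditions.

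Timp3, the inhibitor that stays bound to the matrix and also blocks several ADAMTS and ADAM proteases, was high in mural and fibroblast cells, endothelial cells and astrocytes in both conditions. It stood at 1041 ± 560 CPM in mural and fibroblast cells (SD, n = 6), 675 ± 214 in endothelial cells (n = 5) and 642 ± 167 in astrocytes (n = 5). Mural and fibroblast cells exceeded endothelial cells in 3 of 5 libraries and endothelial cells exceeded astrocytes in 3 of 5, so these neighbours in the order did not differ beyond their spread, whereas astrocytes exceeded OPCs (186 ± 64.8, n = 6) in 5 of 5. A UMI was present in 82.9% of mural and fibroblast cells, 69.0% of endothelial cells and 68.1% of astrocytes, against 5.88% of lymphocytes and 2.22% of TAM I. Against naïve libraries Timp3 differed by -0.10 (SE 0.32, edgeR adjusted p = 0.927) in endothelial cells and by -0.13 (SE 0.29, edgeR adjusted p = 0.988) in astrocytes, where 0.982% of 611 genes were called. In mural and fibroblast cells the naïve level of 1210 CPM was close to the 1176 of the tumour-bearing libraries. Astrocytes also held Mmp14 at 124 ± 75.3 (n = 5), above TAM I of the same library in 4 of 5, and the related inhibitor Timp4 had its highest level in astrocytes (285 CPM).

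Adamts4, which cuts aggrecan, brevican and versican, was the member of the oligodendrocytes. Its level there was 211, 176 and 313 CPM in WT early, intermediate and late, 56.7, 324 and 199 in the KO libraries, and 249 (WT) and 237 (KO) in the naïve libraries. A UMI was found in 42.2% of oligodendrocytes of tumour-bearing libraries at a median depth of 2726 UMIs, in 52.4% of those of naïve libraries at 3072, and in 0 of 187 lymphocytes. Mural and fibroblast cells of tumour-bearing libraries held a like level (197 ± 102, n = 6), below oligodendrocytes in 3 of 6 libraries, but 0 (WT) and 16.3 (KO) in the naïve libraries. In oligodendrocytes, 3 members were tested against naïve cells, Adamts4 (-0.19, SE 0.36), Adamts1 (0.11, SE 0.36) and Timp2 (0.05, SE 0.26), and none was called, in a fit that called 2.44% of 2660 genes with edgeR. Their Fos (2.80) and Fosb (3.499) were higher in tumour-bearing libraries, and Serpine2 was lower (-3.01, edgeR adjusted p = 0.00838).

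Mmp9 (gelatinase B), which neutrophils store, was close to absent from the kept cells. It had 2 UMIs, both in tumour cells, and 0 in the 443 TAM II, 180 TAM I and 41 mural and fibroblast cells, where 3 UMIs would stand for 1.46, 4.27 and 8.91 CPM. No neutrophil cluster was found. The 8 neutrophil markers summed to 45.8 CPM in TAM II, where S100a9, Retnlg, Cxcr2 and Ngp were at 0 and the sum came from the others, and to 1.02 in tumour cells. By library the sum was higher in TAM I, from 57.6 (WT intermediate) to 168 (KO intermediate), than in TAM II, from 11.4 (WT intermediate) to 57.0 (KO late). Barcodes that were not kept as cells held 8 Mmp9 UMIs in the tumour-bearing and 1 in the naïve libraries.

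Over 74 sums of a class in a library, the genes whose log2 profiles lay closest to each member were found by Pearson correlation. Mmp3 was closest to Aqp1 (0.895), Lox (0.876) and Loxl2 (0.828), and Mmp13 to Mmp3 (0.821), Lox (0.802) and Aqp1 (0.766). Lox and Loxl2 encode enzymes that crosslink collagen. Timp1 was closest to the matrix genes Col3a1 (0.781), Col1a1 (0.775) and Thbs2 (0.763). The nearest genes of Timp2 included the lysosomal gene Ctsb (0.664) and Abhd12 (0.606), while those of Timp3 were Sparcl1 (0.852), Hes1 (0.770) and Tnfrsf19 (0.770). For Adamts4 they were Sept4 (0.778), the myelin gene Mal (0.750) and Apod (0.741), and for Adamts1 Sparc (0.704), Nes (0.675) and Ecscr (0.674). Mmp14 was nearest to Lpp (0.775), Pdpn (0.716) and Slc7a11 (0.672), and Mmp2 to Fkbp11 (0.709), Hsp90b1 (0.631) and Col3a1 (0.597). Mmp9 was too low for this. The sums share libraries, depth and, for the classes of 1 mouse, the animal, so these values describe the profiles and carry no test.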

How the data were processed

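The authors made the deposited UMI counts, 1 table per library with 3000 barcodes, with bcl2fastq 2.0 and STAR on GRCm38/mm10 per the submitters' processing notes, followed by the Drop-seq pipeline, and did not normalise them. STAR's version is not given in the sources used here.

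Each table was reduced to its 1000 deepest barcodes, then to genes found in at least 30 cells (18473 genes) and cells with at least 1000 genes (5698 cells). Log2(CPM + 1) values were reduced to 50 principal components without 31 Mmp, Timp and Adamts genes, embedded by tSNE (Rtsne 0.17, perplexity 50) and clustered by HDBSCAN (scikit-learn 1.9.0, at least 19 cells), and 89 unassigned cells joined the majority of their 15 nearest cells. The 12 clusters were named from marker lists, the myeloid cluster was divided by Leiden clustering (scanpy 1.11.5), and cells of the endothelial cluster with more mural and fibroblast than endothelial marker UMIs were moved to the mural and fibroblast class. These names were rebuilt here and need not match the study's own. No doublets were removed in the main analysis. Scrublet called 39 cells over 8 libraries, and since it called under 0.5% in some, the doublets removed setting took the 5% of cells with the highest scores there, 235 cells in all, leaving 5463.

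UMIs were summed per library and class (at least 5 cells, or 3 for mural and fibroblast against endothelial cells) and tested with edgeR 4.0.16 (R 4.3.3; TMM, filterByExpr, quasi-likelihood F test, Benjamini-Hochberg adjusted p of 0.05). The SE is the log2 difference divided by the square root of F. Library was the block between classes, stage the block for KO against WT, and genotype a covariate for tumour-bearing against naïve and late against early. Differences are given as the first group minus the second. Each test was checked on simulated data, where between 74% and 100% of 200 genes changed 4-fold were recovered. The false share of calls was 1.12% to 5.21%, but 11.6% for tumour-bearing against naïve astrocytes, above the 5% aimed at. Levels carry exact Poisson and shares exact binomial 95% intervals. A count of 0 was read as up to 3 UMIs.

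The members, and the pathway and marker lists, were chosen with earlier results of these data known. The text names each of the 10 members in every comparison where it passed the filter, the called genes of the pathway lists, counted by list, and the 3 genes most alike in log2(CPM + 10) over sums of at least 5 cells. Calls in lists not named in the text are summarised by their counts. The alternatives were DESeq2 1.42.0, no low count filter, total UMI scaling, members kept in clustering, doublets removed, a minimum of 500 genes, thinning to 1000 UMIs, a stricter mural and fibroblast rule and leaving out each library, and, chosen after seeing the data, leaving out cells above 10000 UMIs and leaving a TAM II sub-cluster out. Some genes that these rules name are not reported here.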

Additional observations from a re-analysis of the deposited data

Results flagged for a closer look

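In 27 groups of tumour-bearing libraries, 7 had a library that stood apart by Dixon's test at the 95% level. The 5% of groups that chance alone would flag holds for normally distributed values. It does not hold for sparse counts, so the number flagged is not set against it. In mural and fibroblast cells, Mmp3 in WT late (6427 CPM) lay far above the next library (2547). In TAM II, Mmp13 in WT intermediate (377, from 33 UMIs in 2 of 17 cells) lay above the next at 54.8. In tumour cells, Mmp13 in KO late (6.29, from 25 UMIs in 5 of 529 cells) lay above the next at 1.64. In astrocytes, Timp3 in KO early (354, from 12 UMIs in 14 cells) lay below the others, of which the nearest was 684.

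The other 3 rested on 1 or 2 UMIs. Mmp3 stood at 57.6 CPM in TAM I of WT intermediate and at 4.63 in lymphocytes of KO intermediate, each from 1 UMI where the other libraries held 0. Such counts are flagged by Dixon's test whatever the gene. Timp1 stood at 156 in OPCs of KO early, from 2 UMIs in 6 cells.

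Barcodes that were not kept as cells, 13210 in the tumour-bearing and 5092 in the naïve libraries, also held these transcripts. In tumour-bearing libraries they held Mmp3 at 8.53, Mmp13 at 11.7 and Timp1 at 109 CPM, from 76, 104 and 971 UMIs. In naïve libraries they held 0, 0 and 1 UMI.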

How the results depend on the processing

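The values of single genes kept their direction and side of the threshold in 635 cases, passed only under the alternative in 22, no longer passed in 2 and reversed in 1. The reversal was Mmp3 in tumour cells against other cells with doublets removed (0.27, edgeR adjusted p = 0.870), a setting that placed 10 deep fibroblast-leading cells among the tumour cells. Of the main values, 180 stayed and 76 moved.

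Counts of called genes moved as follows, and where no cause is named it was not tested. Mural and fibroblast against endothelial cells gave 344 genes, 619 without the low count filter, 28 with doublets removed, 163 without cells above 10000 UMIs and 229 to 371 leaving out a library. Against naïve libraries, endothelial cells gave 53, 140 without the filter, 90 at 500 genes per cell and 39 to 80 leaving out a library. Microglia gave 545, and 20 to 635 leaving out a library (20 without KO naïve, 97 without WT naïve). Oligodendrocytes gave 65, 207 without the filter and 3 to 87 (3 without KO naïve). Astrocytes gave 6, 60 without the filter, 11 with doublets removed, 31 at 500 genes and 3 to 20. For KO against WT, tumour cells gave 0, 71 with DESeq2, 495 without the filter, 2 with members kept in clustering, 1 with doublets removed, 2 at 500 genes and 11 to 162 leaving out a library. TAM I gave 0, 3 without the filter and 2 to 31. TAM II gave 6, 54 without the filter, 2 with total UMI scaling, 1 with members kept, 1 with doublets removed, 2 without sub-cluster 1 and 11 to 89. For late against early, tumour cells gave 0, 23 with DESeq2, 395 without the filter and 0 to 71. TAM II gave 1, 32 without the filter, 17 to 96 leaving out a library, and 0 with total UMI scaling, members kept, doublets removed, 500 genes or without sub-cluster 1.

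With doublets removed the mean Mmp13 level of mural and fibroblast cells was 2322 CPM. Thinned to 1000 UMIs per cell, shares of cells with a UMI in the leading class were 12.2% (Mmp2), 31.7% (Mmp3), 22.0% (Mmp14), 44.4% (Timp2), 51.2% (Timp3), 51.7% (Adamts1) and 18.7% (Adamts4). Few mural and fibroblast cells and 1 library per group limit these results. Classes were compared within libraries and genotypes within stages in the main tests.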
